A study of Mus musculus with 6 samples.

Results

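Antioxidant genes, the genes of their regulator NRF2 and the genes of the NADPH oxidases that make oxidants were followed in cultured primary VSMCs (vascular smooth muscle cells) of the mouse after loss of Ncor1, which encodes a nuclear receptor corepressor. The set holds 37 genes, taken by symbol from a fixed list, of 44792 rows in the count table. There were 3 libraries of Ncor1 knockout cells (labelled I-KO, genotype Ncor1-/-) and 3 libraries of control cells (labelled I-WT, wild type littermates), all on the C57BL/6 strain. The design text names 4-hydroxytamoxifen, the drug that switches on the deletion, after naming both groups of mice. Which recombinase drives the smooth muscle deletion, the age and the sex of the mice were not stated in the labels. The design text also speaks of technical replicates, so each p-value reflects the spread of these libraries alone, and that spread may be technical.

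Superoxide is made from oxygen and NADPH by membrane oxidases, converted to hydrogen peroxide by superoxide dismutases, and hydrogen peroxide is broken down by catalase, glutathione peroxidases and peroxiredoxins. NRF2 (gene Nfe2l2) is the transcription factor that raises many of these genes. Under resting conditions KEAP1 binds it and sends it for degradation. When oxidants or electrophiles modify KEAP1, NRF2 enters the nucleus, pairs with a small MAF protein and binds antioxidant response elements, so it is controlled mainly at the level of protein, which was not measured here. In vascular smooth muscle NOX4 and NOX1 are the main catalytic oxidase subunits, and the extracellular dismutase SOD3 is the major dismutase of the vessel wall matrix.

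Total counts were 7125538 to 9579490 per knockout library and 7231968 to 9005690 per control library. Values below are CPM (counts scaled to a common library size, with TMM factors that correct for composition), as mean ± SD with n = 3 per group. Each log2 fold change is knockout over control, with its standard error (SE), and a gene is said to be higher or lower where edgeR's quasi-likelihood test gave an adjusted p under 0.05 (Benjamini-Hochberg over 13323 tested genes). Ncor1 itself stood at 99.3, 93.7 and 94.4 CPM in knockout libraries and at 213, 223 and 230 CPM in control libraries. Markers of other cells moved with the genotype. In knockout libraries 11 of 12 smooth muscle markers were lower, 19 of 20 endothelial markers higher and 18 of 20 macrophage and leukocyte markers higher. The adventitial fibroblast markers were split, with 3 of 8 tested higher and 5 lower, and summed to 1836 to 1919 CPM in knockout and 1249 to 1305 CPM in control libraries. The rise in that sum lay mainly in Cd34, at a mean of 766 CPM in knockout and 223 CPM in control libraries, and Dcn, at 321 and 26.1 CPM. The 5 lower markers include Gsn, at a mean of 697 CPM in knockout and 882 CPM in control libraries. The summed level of the smooth muscle list was 3958 to 4160 CPM in knockout and 11834 to 12056 CPM in control libraries. That of the endothelial list was 8021 to 8182 CPM in knockout and 2407 to 2494 CPM in control libraries, and that of the macrophage list 700 to 757 CPM in knockout and 58.4 to 85.3 CPM in control libraries. No marker on these lists was at 0 counts in all control libraries. In bulk RNA, fewer cells of a type and less RNA per cell cannot be told apart, and the part of these cell types in the results below was not tested.

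All 37 genes were expressed enough to be tested. In the knockout 13 were higher, 9 were lower and 15 did not pass. Their median log2 fold change was 0.10. Among all tested genes 26.4% were higher and 26.2% lower, 52.6% in all, with a median of 0.00, so differences of this kind were common outside the set too. A difference of at least 1.5-fold was reached by 7 of the 37, against 22.6% of all tested genes. Knockout and control libraries had no overlap in 22 of the 37 genes, against 57.8% of all genes tested. The genes did not move as a block. The largest increase was in Hmox1 and the largest decreases were in Sod3 and Gsta4, and members of the same enzyme family went in opposite directions.

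**Figure D1:**
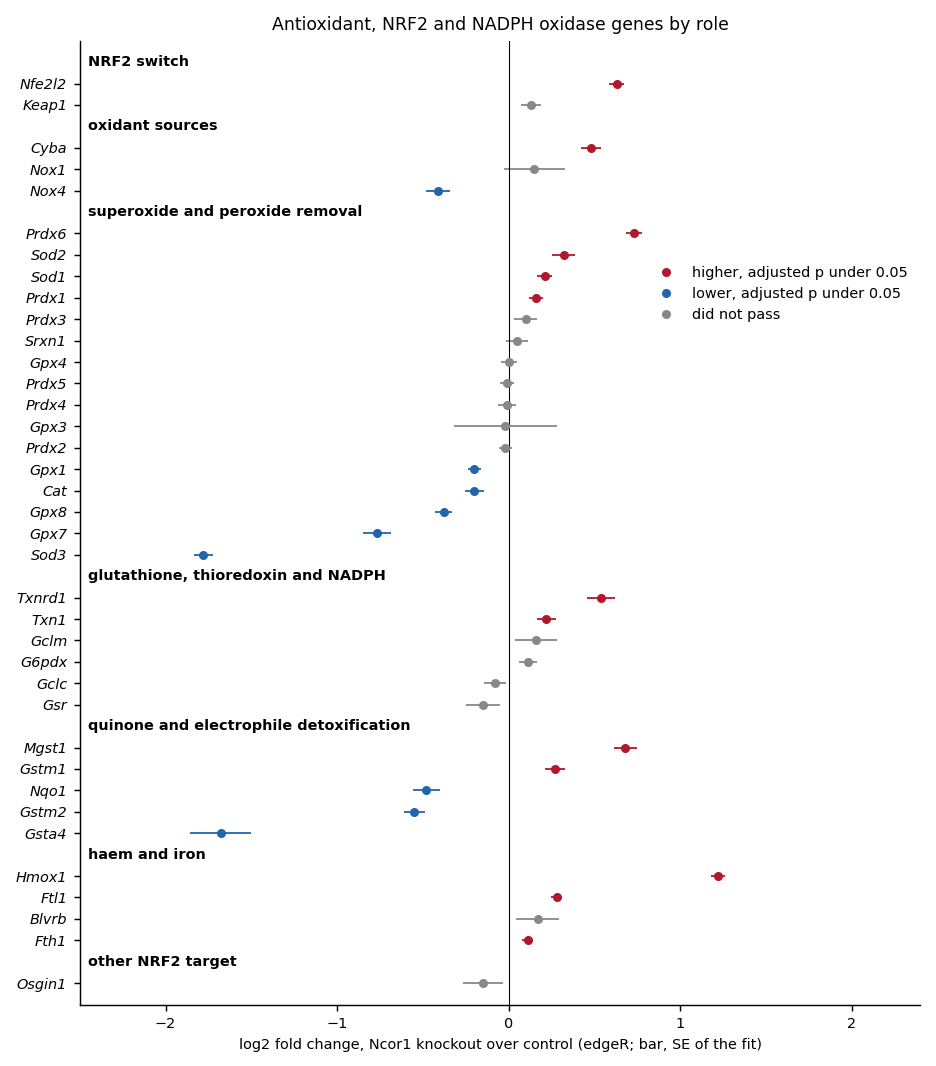
Log2 fold change of each of the 37 genes, Ncor1 knockout over control, grouped by role, with the SE of the fit as a bar and colour by the call at an adjusted p of 0.05. Hmox1 (1.22) is farthest to the right, Sod3 (-1.78) and Gsta4 (-1.68) are farthest to the left, and most other points lie within 1 of zero.

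**Figure D2:**
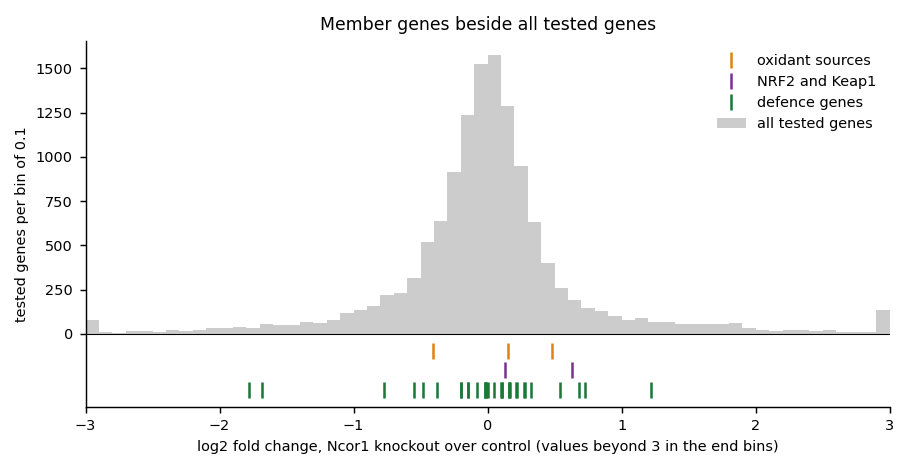
Histogram of the log2 fold changes of all 13323 tested genes in bins of 0.1, with tick marks below it for the oxidant sources, for Nfe2l2 and Keap1, and for the defence genes. The ticks spread to both sides of zero, with a median of 0.10 over the 37 genes.

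Per gene length, the set spans a wide range of levels. Ferritin light chain, Ftl1, had the highest mean FPKM, 1086 in knockout and 816 in control libraries, and Gpx3 the lowest, 1.59 in knockout and 1.42 in control libraries. Of the genes that changed place, Hmox1 stood eighth in the knockout at 227 ± 4.42 FPKM and twelfth in control at 88.6 ± 3.11 FPKM. Sod3 stood at place 22 in the knockout with 22.7 ± 1.17 FPKM and at place 14 in control with 71.0 ± 3.45 FPKM. Nox4 was among the lower genes in both groups, at 9.88 ± 0.344 FPKM in knockout and 12 ± 0.776 FPKM in control libraries.

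The oxidant sources went in different directions. NOX4 makes hydrogen peroxide constitutively, NOX1 makes superoxide on stimulation, and the product of Cyba, p22phox, is the membrane partner that both need. Nox4 was at 39.6, 37.4 and 39.6 CPM in knockout libraries and at 55.4, 50.3 and 49.4 CPM in control libraries. Every knockout library was below every control library, a 1.33-fold lower level (log2 fold change -0.41, SE 0.0697, adjusted p = 7.59e-07). Cyba had 103, 98.7 and 104 CPM in knockout libraries against 71.5, 66.4 and 81.9 CPM in control libraries. Here every knockout library was above every control library, a 1.4-fold higher level (log2 fold change 0.48, SE 0.0569, adjusted p = 9.21e-11). Nox1 was low, at 6.64, 5.65 and 6.56 CPM in knockout and 5.01, 6.05 and 6.14 CPM in control libraries. These values overlap, and the difference did not pass (log2 fold change 0.15, SE 0.178, adjusted p = 0.514). Nox1 overlaps Cstf2 in the RefSeq annotation of GRCm38.p6, and without a known strand setting their shared reads cannot be told apart.

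Per gene length, Nox4 was the main catalytic subunit of the pair in all 6 libraries. It held 82.7% to 84.2% of the summed FPKM (fragments scaled to gene length and library size) of Nox4 and Nox1 in knockout and 86.6% to 89.9% in control libraries. The ratio of Cyba FPKM to Nox4 FPKM, which does not depend on how libraries are scaled, was 14.1, 14.3 and 14.2 in knockout libraries and 6.99, 7.15 and 8.98 in control libraries. The partner thus stood higher relative to Nox4 in every knockout library than in any control library.

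Cyba also serves the leukocyte oxidase NOX2, so the other oxidase genes were read from a list of 15, of which 14 were in the table and 7 were expressed enough to be tested. Of these 6 were higher, against 26.4% of all tested genes, and Poldip2 did not pass (log2 fold change -0.13). Cybb, which encodes NOX2 itself, had 16.5, 17.5 and 16.2 CPM in knockout libraries against 1.98, 3.09 and 1.90 CPM in control libraries (log2 fold change 2.83, SE 0.177, adjusted p = 4.64e-22). The cytosolic organizer Ncf1 (p47phox) averaged 4.76 ± 0.787 CPM in knockout and 0.699 ± 0.219 CPM in control libraries. Its control level rests on 16 counts over the 3 libraries. The leukocyte GTPase Rac2 was higher by 2.51 on the log2 scale (SE 0.291). Among the rest, named here after their values were seen, were Noxo1, an organizer of NOX1 (0.78, SE 0.282), and the widely expressed GTPase Rac1 (0.13, SE 0.0367). Cybb, Ncf1 and Rac2 are phagocyte genes, and the macrophage and leukocyte list, with 18 of 20 markers higher and a median log2 fold change of 3.36, rose in the same libraries. The part of macrophages in the level of Cyba was not tested.

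**Figure D3:**
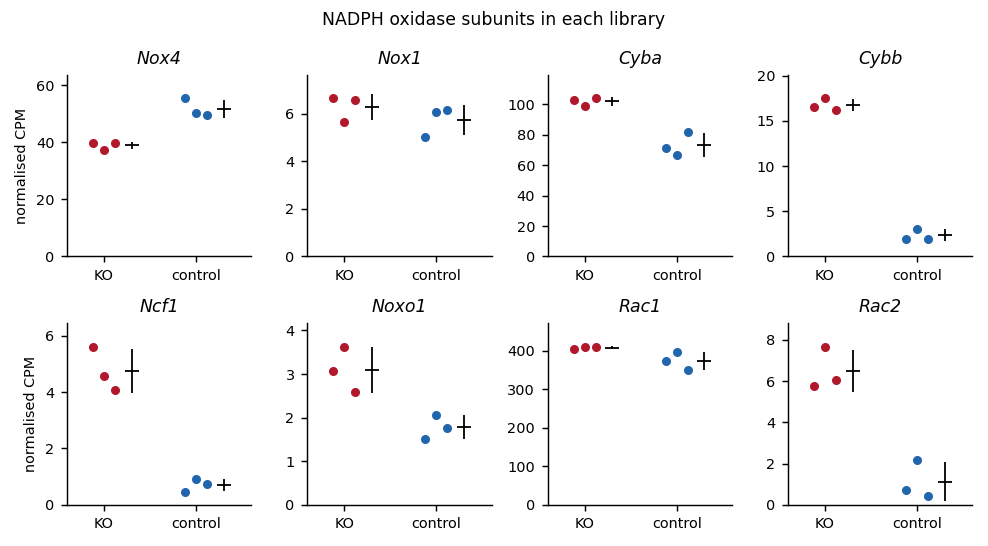
Normalised CPM of 8 NADPH oxidase genes in each knockout (red) and control (blue) library, with the mean and SD of each group in black and the axis starting at 0. Nox4 is lower, Nox1 overlaps, and Cyba, Cybb, Ncf1, Noxo1, Rac1 and Rac2 are higher in every knockout library than in any control library.

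Other enzymes that release peroxide or radicals also split. That list had 15 tested genes, with 8 higher, 4 lower and 3 that missed the threshold (median 0.20). Nos3, the endothelial nitric oxide synthase, averaged 216 ± 6.58 CPM in knockout and 67.7 ± 6.86 CPM in control libraries, and it is also a member of the endothelial list. Lower were the sulfhydryl oxidase Qsox1 (log2 fold change -0.49, SE 0.033) and the monoamine oxidases Maoa (-0.75, SE 0.06) and Maob (-1.47, SE 0.165).

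The transcript that encodes NRF2 was higher. Nfe2l2 was at 243, 230 and 227 CPM in knockout libraries and at 151, 160 and 139 CPM in control libraries. The groups did not overlap, and the level was 1.55-fold higher (log2 fold change 0.63, SE 0.043, adjusted p = 5.89e-20). Its inhibitor Keap1 had 83.6, 76.1 and 80.1 CPM in knockout libraries against 72.3, 68.1 and 79.5 CPM in control libraries. The groups overlapped and the difference narrowly missed the threshold (log2 fold change 0.13, SE 0.058, adjusted p = 0.0545). Keap1 passed as higher in 7 of the 17 alternative settings. Its log2 fold change was 0.26 with library totals alone (edgeR adjusted p = 5.88e-05) and 0.25 to 0.26 in the 3 limma fits on FPKM (adjusted p from 0.0116 to 0.0257). DESeq2 size factors gave an adjusted p of 0.0499. Leaving out control replicate 3 gave 0.0108, and leaving out knockout replicate 2 gave 0.0311. Within each library, Nfe2l2 FPKM over Keap1 FPKM was 5.25, 5.47 and 5.13 in the knockout and 3.78, 4.25 and 3.17 in control.

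Of 16 tested genes that partner or control NRF2, 3 were higher, 4 lower and 9 did not pass (median 0.05). Maff, which encodes a small MAF protein of the kind NRF2 pairs with, averaged 142 ± 3.58 CPM in knockout and 69.2 ± 4.55 CPM in control libraries (log2 fold change 1.04, SE 0.0514), and Mafk was higher by 0.39 (SE 0.0558). Sqstm1, whose product p62 draws KEAP1 into autophagy, fell by 0.20 on the log2 scale (SE 0.0344), and the sestrin Sesn3 fell by 0.56 (SE 0.109).

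The elements themselves were searched in RefSeq promoters of build GRCm38.p6, which run from 250 bases before to 50 bases after each start. The core searched was TGACNNNGC on either strand. Of the 37 genes 31 had a promoter in that table, and 8 of these (25.8%) held the core, against 14% of all 27025 genes in the table and 17% of tested genes. Among genes with a promoter there, 5 of 11 that were higher held the core, against 0 of 7 that were lower and 3 of 13 that did not pass. These groups are uneven, since the 11 higher genes have 16 promoters in the table and the 7 lower genes 7. Hmox1, Sod3, Gsta4, Prdx6, Gclc and Gsr are not among the genes searched. The 5 were Nfe2l2, Txnrd1, Prdx1, Mgst1 and Sod1, and the 3 were G6pdx, Gclm and Srxn1. A match describes letters, not a bound site, and the windows of Nqo1 and Cat, among others, hold no such letters. Elements outside these windows were not searched. The share among all higher or all lower tested genes was not counted, so the split by call has no baseline. The AP-1 motif TGANTCA was found in 7.81% of all promoters and in 3 of the 40 promoters of the set, and it overlapped the core in Prdx1 only. To show how these elements sit, the stretches around those that lie before the start are given 5′ to 3′ on the strand of the gene, with the core in capitals. A core that reads GCNNNGTCA lies on the opposite strand.
Nfe2l2, chr2:75704870-75704913, minus strand: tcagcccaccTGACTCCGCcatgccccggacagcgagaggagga
Txnrd1, chr10:82859089-82859147, plus strand: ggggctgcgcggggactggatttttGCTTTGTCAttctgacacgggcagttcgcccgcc
Prdx1, chr4:116685441-116685499, plus strand: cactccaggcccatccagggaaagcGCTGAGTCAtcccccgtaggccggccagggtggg
Mgst1, chr6:138140446-138140504, plus strand: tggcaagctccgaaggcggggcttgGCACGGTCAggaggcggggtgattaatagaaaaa
Sod1, chr16:90220681-90220739, plus strand: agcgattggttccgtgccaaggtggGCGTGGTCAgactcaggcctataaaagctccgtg
Gclm, chr3:122245398-122245456, plus strand: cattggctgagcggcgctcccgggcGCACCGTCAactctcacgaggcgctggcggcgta
G6pdx, chrX:74428904-74428962, minus strand: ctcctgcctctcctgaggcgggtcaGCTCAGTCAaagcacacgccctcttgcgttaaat

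Well-known NRF2 targets did not share a direction. Hmox1, Txnrd1 and Prdx1, all textbook targets, were higher. Nqo1, the quinone reductase often used as the readout of NRF2, was lower, at 28.5, 30.6 and 30.8 CPM in knockout libraries and 42.7, 44.4 and 37.7 CPM in control libraries. Its groups did not overlap (log2 fold change -0.48, SE 0.078, adjusted p = 3.76e-07). The targets Gclc, Gclm, Srxn1, Gsr, G6pdx and Osgin1 did not pass, with log2 fold changes from -0.15 to 0.16. With library totals alone Gclm (0.29), Srxn1 (0.18) and G6pdx (0.25) passed as higher. Their edgeR adjusted p was then 0.0338, 0.012 and 4.09e-05. Within each library the ratio of Hmox1 FPKM to Nqo1 FPKM was 12, 10.8 and 11.0 in the knockout and 3.51, 3.15 and 3.79 in control.

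The superoxide dismutases changed in opposite directions by compartment. Sod3 encodes the enzyme secreted into the matrix, Sod1 the cytosolic and Sod2 the mitochondrial one. Sod3 fell to 47.2, 43.8 and 42.5 CPM in knockout libraries, against 145, 151 and 161 CPM in control libraries. The gap between the groups was far wider than the spread within them, a 3.42-fold lower level (log2 fold change -1.78, SE 0.0558, adjusted p = 2.58e-37). Sod1 averaged 169 ± 9.33 CPM in knockout and 146 ± 1.97 CPM in control libraries (log2 fold change 0.21, SE 0.0438, adjusted p = 2.78e-05). Sod2 averaged 56.4 ± 1.64 CPM in knockout and 44.9 ± 3.61 CPM in control libraries (0.32, SE 0.0671, adjusted p = 3.59e-05). Per gene length, Sod3 made up 8.15%, 6.88% and 6.96% of the FPKM of the 3 dismutases in knockout libraries, against 23.3%, 23.4% and 25.1% in control libraries. Their summed FPKM was 311 ± 14.8 in knockout and 297 ± 5.35 in control libraries, and Sod1 held the largest share in every library.

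The ratio of Nox4 to each dismutase therefore differed in direction. Nox4 FPKM over Sod1 FPKM averaged 0.0363 ± 0.003 in knockout and 0.0559 ± 0.00415 in control libraries. Nox4 FPKM over Sod2 FPKM averaged 0.641 ± 0.038 in knockout and 1.07 ± 0.0911 in control libraries. Nox4 FPKM over Sod3 FPKM averaged 0.435 ± 0.025 in knockout and 0.169 ± 0.0189 in control libraries. Relative to Nox4, the cytosolic and the mitochondrial dismutase stood higher and the extracellular one lower in all knockout libraries. These ratios are a description of levels and were not tested. NOX4 makes hydrogen peroxide, which is also the product of the dismutases, so they do not set a source against its removal.

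Among enzymes that remove peroxide, 2 of the 6 peroxiredoxins were higher and 4 did not pass. Prdx6, which reduces phospholipid hydroperoxides with glutathione, was at 170, 195 and 186 CPM in knockout libraries and at 107, 116 and 110 CPM in control libraries. The groups did not overlap, a 1.66-fold higher level (log2 fold change 0.73, SE 0.047, adjusted p = 7.89e-21). Prdx1, a cytosolic thioredoxin-dependent peroxidase, averaged 430 ± 28.3 CPM in knockout and 385 ± 20.7 CPM in control libraries (0.16, SE 0.0413, adjusted p = 0.0015), and 1 knockout library lay below the highest control library. Prdx2, Prdx3, the endoplasmic reticulum enzyme Prdx4 and Prdx5 lay between -0.02 and 0.10 on the log2 scale. With library totals alone, where the median of all genes moved by 0.13, these 4 passed as higher too. Prdx3 was then at 0.23 (edgeR adjusted p = 0.00257) and the other peroxiredoxins of these 4 at 0.12. Prdx3 also passed as higher in the 3 limma fits on FPKM (0.22, adjusted p from 0.00455 to 0.0101). Sulfiredoxin, Srxn1, which repairs over-oxidized peroxiredoxins, did not pass with TMM factors either (0.05, SE 0.0642). It passed as higher with library totals alone (0.18, edgeR adjusted p = 0.012). The limma fits on log2(FPKM + 1) with a filter (0.18, adjusted p = 0.0375) and log2(FPKM + 0.1) (0.19, adjusted p = 0.0381) also called it higher.

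The glutathione peroxidases and catalase pointed the other way, with 3 of 5 peroxidases lower and the other two not passing. Gpx7 and Gpx8 encode peroxidases of the endoplasmic reticulum that act in oxidative protein folding. Gpx7 had 26.2, 26 and 22.6 CPM in knockout libraries against 44.0, 40.0 and 42.8 CPM in control libraries. Every knockout library was below every control library, a 1.71-fold lower level (log2 fold change -0.77, SE 0.081, adjusted p = 9.97e-13). Gpx8 averaged 89.6 ± 5.38 CPM in knockout and 117 ± 3.95 CPM in control libraries (-0.38, SE 0.0509, adjusted p = 2.21e-09). The cytosolic Gpx1 averaged 236 ± 12.4 CPM in knockout and 271 ± 2.54 CPM in control libraries (-0.20, SE 0.0387, adjusted p = 1.04e-05). Catalase, Cat, averaged 76.6 ± 2.30 CPM in knockout and 87.9 ± 3.31 CPM in control libraries (-0.20, SE 0.0542, adjusted p = 0.00132). Gpx1 and Cat kept their sign but lost the call when libraries were scaled by their totals alone (both -0.07, adjusted p = 0.129 for Gpx1 and 0.306 for Cat). Gpx4, which protects membranes from lipid peroxidation and ferroptosis, did not pass (log2 fold change 0.00, SE 0.046, adjusted p = 0.993). It passed as higher with library totals alone (0.13, edgeR adjusted p = 0.0104) and in the 3 limma fits on FPKM (0.13, adjusted p from 0.0258 to 0.0487). The plasma peroxidase Gpx3 did not pass, at only 2.31 ± 0.913 CPM in knockout and 2.27 ± 0.875 CPM in control libraries.

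**Figure D4:**
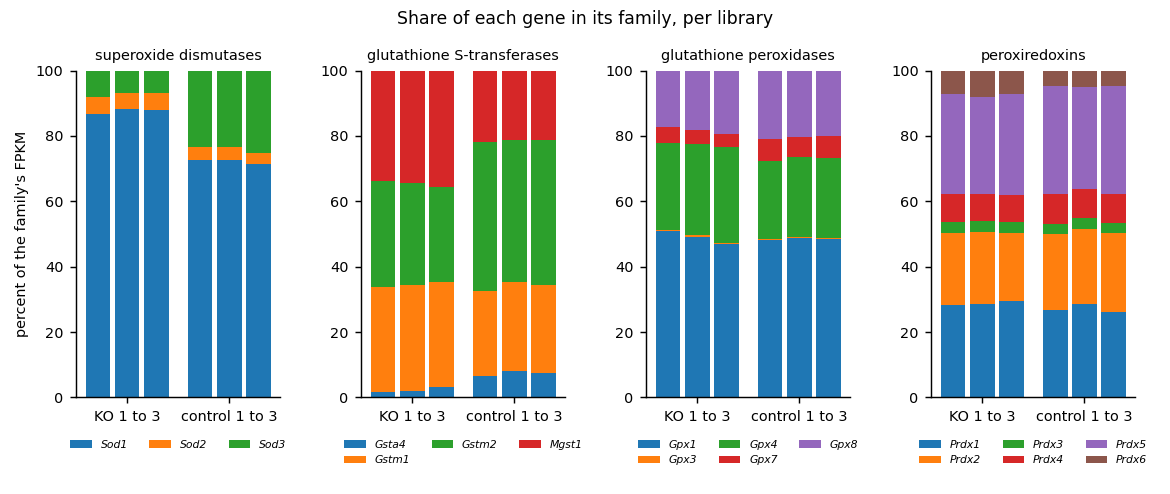
Percent of each family's summed FPKM held by each member in every library, knockout libraries on the left of each panel and control libraries on the right. The Sod3 share is 6.88% to 8.15% in knockout and 23.3% to 25.1% in control libraries, the Mgst1 share is 33.8% to 35.5% in knockout and 21.2% to 21.7% in control libraries, and the Prdx6 share is 7.24% to 7.93% in knockout and 4.58% to 4.96% in control libraries.

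Of the 6 genes of glutathione, thioredoxin and NADPH supply in the set, Txnrd1 and Txn1 were higher and 4 did not pass. Txnrd1, the cytosolic thioredoxin reductase, was at 39.2, 35.4 and 39.6 CPM in knockout libraries and at 26.3, 25.2 and 27.2 CPM in control libraries. The groups did not overlap, a 1.46-fold higher level (log2 fold change 0.54, SE 0.0809, adjusted p = 4.14e-08). Its substrate Txn1 averaged 135 ± 9.82 CPM in knockout and 116 ± 9.58 CPM in control libraries (0.22, SE 0.0533, adjusted p = 6.08e-04). Both subunits of the rate-limiting enzyme of glutathione synthesis failed the test, the catalytic Gclc (-0.08, SE 0.0659) and the modifier Gclm (0.16, SE 0.122), as did glutathione reductase, Gsr (-0.15, SE 0.1). Glucose-6-phosphate dehydrogenase, G6pdx, which supplies NADPH, averaged 89.5 ± 1.99 CPM in knockout and 82.5 ± 0.308 CPM in control libraries. Its groups did not overlap but it did not pass (0.11, SE 0.0526, adjusted p = 0.0606). G6pdx passed as higher with library totals alone (0.25, adjusted p = 4.09e-05), in the 3 limma fits on FPKM (adjusted p from 0.000911 to 0.00197) and without knockout replicate 3 (adjusted p = 0.0392). Gsr passed as lower without that library (-0.28, adjusted p = 0.0348). Gclm passed as higher with library totals alone (0.29, edgeR adjusted p = 0.0338). It rests on 386 counts in knockout and 316 in control libraries, and it overlaps Gm6061 in GRCm38.p6. Gm6061 had 1760 counts over all libraries, and without a known strand setting reads shared by these genes cannot be told apart.

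Of 21 other tested genes of glutathione and thioredoxin metabolism 5 were higher, 6 lower and 10 did not pass (median -0.12). The methionine sulfoxide reductases Msrb3 and Msrb1, which repair oxidized methionine, fell to 186 ± 10.4 and 33.9 ± 4.52 CPM in knockout libraries, against 323 ± 5.36 and 87.6 ± 3.90 CPM in control libraries. The glutathione hydrolase family gene Ggt7 was lower (log2 fold change -1.49, SE 0.184), and the gamma-glutamylcyclotransferase Ggct higher (1.08, SE 0.133). Among 13 other genes listed under NADPH supply, 4 were higher, 5 lower and 4 did not pass (median 0.03). That list includes pentose phosphate pathway enzymes, such as transaldolase, that do not make NADPH themselves. Transaldolase, Taldo1, of the pentose phosphate pathway averaged 251 ± 1.53 CPM in knockout and 123 ± 4.12 CPM in control libraries, and the NAD kinase Nadk was higher by 0.46 (SE 0.039). The NADP-dependent isocitrate dehydrogenases were lower, the mitochondrial Idh2 at 80.9 ± 3.38 CPM in knockout and 157 ± 4.53 CPM in control libraries, and the cytosolic Idh1 by a log2 fold change of -0.75 (SE 0.0545).

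All 5 genes of quinone and electrophile detoxification differed, 2 higher and 3 lower, against 52.6% of all tested genes that differed. Mgst1, a glutathione transferase of membranes, was at 61.7, 64.2 and 65.6 CPM in knockout libraries and at 40.0, 40.4 and 39.2 CPM in control libraries. The groups did not overlap, a 1.6-fold higher level (log2 fold change 0.68, SE 0.0654, adjusted p = 4.95e-14). Gsta4, whose product conjugates the lipid peroxidation product 4-hydroxynonenal, fell to 2.68, 2.96 and 4.67 CPM in knockout libraries, against 10.1, 12.7 and 11.4 CPM in control libraries. All knockout values lay below all control values, a 3.21-fold lower level resting on 90 counts in knockout and 264 in control libraries (log2 fold change -1.68, SE 0.18, adjusted p = 2.41e-12).

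The neighbouring mu-class genes Gstm1 and Gstm2 differed in direction. Gstm2 had 53.1, 52.4 and 48.1 CPM in knockout libraries against 75.6, 73.6 and 74.0 CPM in control libraries (log2 fold change -0.55, SE 0.0609, adjusted p = 9.56e-12). Gstm1 averaged 66.5 ± 1.37 CPM in knockout and 55.1 ± 2.02 CPM in control libraries (0.27, SE 0.0609, adjusted p = 1.19e-04). Neither pair of groups overlapped, and since the counting of reads shared between these similar genes is not known, both values are uncertain. Of 24 other tested genes of conjugation and detoxification 7 were higher, 7 lower and 10 did not pass (median -0.15). Gstt1, a theta-class transferase, averaged 7.86 ± 0.931 CPM in knockout and 28.0 ± 2.78 CPM in control libraries, while Ugdh, which makes the sugar donor for glucuronidation and hyaluronan, averaged 248 ± 5.22 CPM in knockout and 157 ± 1.47 CPM in control libraries. The glutathione-conjugate exporter Abcc1 and the epoxide hydrolase Ephx1 fell by 0.49 (SE 0.0395) and 0.38 (SE 0.0358) on the log2 scale.

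**Figure D5:**
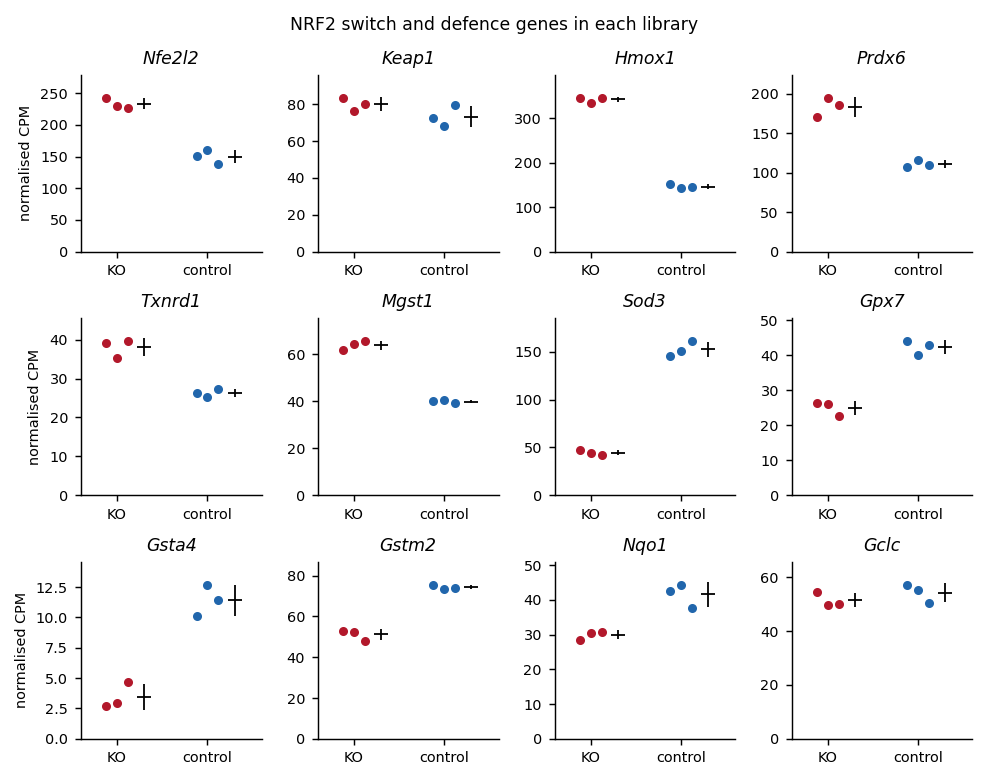
Normalised CPM of Nfe2l2, Keap1 and 10 defence genes in each knockout (KO, red) and control (blue) library, with the mean and SD in black and each axis starting at 0. Hmox1 sits at 335 to 346 CPM in knockout and 142 to 152 CPM in control libraries, Sod3 at 42.5 to 47.2 CPM in knockout and 145 to 161 CPM in control libraries, and Keap1 and Gclc overlap.

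Of the 4 genes of haem breakdown and iron storage 3 were higher, against 26.4% of all tested genes. Hmox1, the inducible haem oxygenase that releases iron, carbon monoxide and biliverdin, was at 346, 335 and 345 CPM in knockout libraries and at 152, 142 and 145 CPM in control libraries. The libraries of a group lay close together and the groups far apart, a 2.33-fold higher level and the largest increase of the 37 genes (log2 fold change 1.22, SE 0.0392, adjusted p = 7.84e-37). The ferritin light chain Ftl1 averaged 1008 ± 40.3 CPM in knockout and 831 ± 13.9 CPM in control libraries (0.28, SE 0.0321, adjusted p = 2.75e-11). The heavy chain Fth1, which oxidizes the iron that ferritin stores, averaged 642 ± 8.48 CPM in knockout and 593 ± 28.6 CPM in control libraries (0.11, SE 0.0338, adjusted p = 0.0032). The biliverdin reductase Blvrb did not pass (0.17, SE 0.125, adjusted p = 0.259), but passed as higher with library totals alone (0.30, edgeR adjusted p = 0.0306). Both ferritin genes have processed copies in the genome, and whether reads from such copies are included is not known.

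In the rest of the iron and haem list, 7 of 13 tested genes were higher, 4 lower and 2 did not pass (median 0.20). Slc40a1, which encodes the iron exporter ferroportin, averaged 48.7 ± 4.14 CPM in knockout and 3.04 ± 0.83 CPM in control libraries (log2 fold change 3.96, SE 0.13, adjusted p = 2.63e-36). The transferrin receptor Tfrc, which brings iron in, averaged 103 ± 5.64 CPM in knockout and 44.0 ± 2.26 CPM in control libraries (1.23, SE 0.0601). The ferroxidase Cp and the iron regulator Hfe were higher by 1.10 (SE 0.0837) and 1.33 (SE 0.145). Ferroportin and haem oxygenase 1 are also abundant in iron-recycling macrophages, and the macrophage list summed to 700 to 757 CPM in knockout and 58.4 to 85.3 CPM in control libraries. The part of those cells in the level of Hmox1 was not tested.

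Setting sources beside defences, 1 of the 3 oxidant source genes was higher, 1 lower and 1 did not pass. Of the 32 defence genes 11 were higher, 8 lower and 13 did not pass. Their median log2 fold change was 0.03, against 0.00 for all tested genes. The share of defence genes that differed was 59.4%, near the 52.6% of all tested genes. The balance depended on scaling. With library totals alone the median of all genes moved by 0.13. Then 20 defence genes were higher and 6 lower, and over all 37 genes 23 were higher and 7 lower. Of the 13323 tested genes 5305 were then higher and 2405 lower, against 3512 and 3492 with TMM factors. The signs of the 22 genes that differed were the same under the 17 alternative settings tried, and 20 of them passed in each. Small differences varied in size, and the log2 fold change of Nox4 was -0.25 on log2(FPKM + 1), while that of Fth1 was 0.25 with library totals alone.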

How the data were processed

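RNA sequencing of 3 Ncor1 knockout and 3 control libraries was analysed, grouped by sample titles. Trizol RNA and standard Illumina libraries are named per the labels' protocols, and HISAT2 2.0 and build mm9 per the submitters' processing notes. Which program counted reads, on which annotation and strand, was not stated. The authors deposited raw counts for each gene symbol. They also deposited FPKM values, scaled for gene length and library total.

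Counts were filtered with filterByExpr, scaled by TMM and tested with the robust quasi-likelihood fit of edgeR 4.0.16 in R 4.3.3, two-sided, without a replicate term. The SE was taken as the absolute log2 fold change over the root of its F statistic. CPM are counts over the TMM-scaled library size. FPKM was used for levels between genes and ratios within a library. On simulated data with 13265 genes run and 50 changed at each fold, 40% of genes changed 1.25-fold, 88% at 1.5-fold and 92% at 2-fold were recovered. In the measured data 52.6% of tested genes passed, so the cut on adjusted p was less strict and these shares do not carry over. At these depths 3 counts correspond to 0.313 to 0.421 CPM. The 37 genes and the lists were chosen with earlier results of these data known. List genes named in the text are up to 4 that passed with the smallest adjusted p, and 1 such gene is not reported here. Values in every library are given for members that passed with a log2 fold change of at least 0.5 and for Nfe2l2, Keap1, Nox1, Nox4 and Cyba. Of 4 list symbols absent as written, 3 were found under older names. Reads shared with pseudogene copies (Fth1, Ftl1, Gpx4, Txn1, Gstm2) cannot be assigned. Neither can reads shared with genes that overlap in GRCm38.p6 (Nox1, Prdx1, Prdx5, Gpx7, Gpx8, G6pdx, Gclm, Gsr, Txnrd1, Osgin1). Alternatives were DESeq2 1.42.0 size factors, upper-quartile factors, library totals, no filter, at least 1 CPM in 3 libraries, the DESeq2 test, limma-voom and limma-trend of limma 3.58.1 on log2(FPKM + 1) and log2(FPKM + 0.1), each library left out in turn, and a replicate block. Promoters are from the RefSeq table of GRCm38.p6. No measured value uses its coordinates.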

Additional observations from a re-analysis of the deposited data

How the results depend on the processing

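Of the 22 genes of the set that passed, 20 kept direction and call under all 17 alternatives, none turned sign, and 2, Cat and Gpx1, lost the call with library totals and in the 3 FPKM fits. The cause was not tested. With library totals alone 5305 of all tested genes and 23 of the 37 were higher, 20 of them defence genes, and the median of the 37 was 0.23. On log2(FPKM + 1), log2(FPKM + 0.1) and log2(FPKM + 1) without a filter, 2014, 2000 and 2138 of all genes were lower, and the median of the 37 was 0.18, 0.22 and 0.18. In the first and the second of these fits 21 of the 37 were higher, 18 of them defence genes, and 7 were lower. In the third 19 were higher and 7 lower. Of all genes 4697, 4672 and 4740 were higher in these 3 fits, against 3512 in the main fit. These settings omit the TMM factors, and library totals moved the median of all genes by 0.13.

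Signs turned only in genes that did not pass with TMM factors. Of these, Prdx2, Prdx4 and Prdx5 passed as higher with library totals alone and in the first and the second FPKM fits. With library totals and the 3 FPKM fits in the order above, log2 fold changes were 0.11, 0.09, 0.14 and 0.09 for Gpx3, 0.12, 0.11, 0.11 and 0.11 for Prdx2, 0.12 in each for Prdx4 and Prdx5, and 0.05, 0.05, 0.06 and 0.05 for Gclc. Gpx3 was at 0.01 with the DESeq2 test and 0.01 with the replicate block. Gpx4 was at -0.01 with upper-quartile factors and -0.00 with the replicate block. Leaving out 1 library gave -0.29 to 0.36 for Gpx3, -0.02 to 0.04 for Gpx4, -0.03 to 0.01 for Prdx4, -0.05 to 0.01 for Prdx5 and -0.00 to 0.09 for Srxn1.

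Leaving out 1 library, 13 to 14 of the 37 were higher and 9 to 10 lower, and 3224 to 3381 of all genes were higher and 3186 to 3342 lower. Same-numbered libraries deviated together with correlations of 0.00398, 0.0159 and 0.0232. Knockout 2 and knockout 3 correlated best with the control of the same number, and knockout 1 with control 2 (0.00664). Correlations this small cannot decide whether the libraries were paired. With the replicate block 3509 of all genes were higher and 3486 lower, and 13 and 9 of the 37. The DESeq2 test called 2785 of all genes higher and 2639 lower, and the same numbers of the 37. Nox1 and Gpx3, at 54 to 160 counts per group, allow only wide estimates.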
